A study of Rattus norvegicus with 3 samples.

Results

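The S100 calcium-binding proteins and the annexins were followed in kidney RNA through 10 genes. These were S100a4, S100a6, S100a8, S100a9, S100a10, S100a11, Anxa1, Anxa2, Anxa3 and Anxa5. The genes were listed by name, with earlier results of these data known. They were found by the gene name printed in the scanner files and checked through the RefSeq accession of each probe, which gave 12 probes of 30365 and all 10 genes of 17947 named genes. The kidneys came from male spontaneously hypertensive rats (SHRs) with a Wistar strain background, aged 8 to 10 weeks and weighing 280 to 330 g. Each of the 3 groups held 10 rats that were dosed by mouth for 4 weeks (28 days), the control group with water, the low-dose group with 10 mg/kg/day of HBMP and the high-dose group with 20 mg/kg/day of HBMP. HBMP is the protein hydrolysate of blue mussel (Mytilus edulis) in the title of the series. RNA of 4 rats of each group was pooled in equal amounts and labelled with Cy3 for 1 array, so each group had 1 value per probe, and nothing could be tested between groups. With 3 arrays in all, precision is low. No group of rats with normal blood pressure was analysed here.

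S100 proteins are small proteins with a pair of EF-hand loops that bind calcium, and most of them act as dimers that grip a target protein once calcium is bound. Annexins bind negatively charged membrane lipids when calcium rises, and several carry an N-terminal stretch that an S100 dimer holds: S100a10 binds Anxa2, and S100a11 binds Anxa1. In the kidney these genes are expressed in epithelium, fibroblasts, vessels and leukocytes, and S100a8 and S100a9 are abundant in neutrophils.

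At the low dose the measured genes of the set were higher than in control, and 5 of them were at least 2-fold higher. S100a6 was 4.90-fold higher, S100a4 3.91-fold, S100a11 3.01-fold, Anxa2 2.20-fold and Anxa1 2.01-fold. At the high dose S100a6 alone was past 2-fold, at 2.70-fold. S100a8 and S100a9 were below the background limit in control and above it at both doses. The count takes genes seen above background on both arrays of a comparison, with a difference of 2-fold or more. A probe was above background where 50% or more of its spots reached 3 in the scanner's signal-to-noise ratio. Of 9737 named genes measured on the control and low-dose arrays, 2.50% were at least 2-fold higher at the low dose and 0.668% at least 2-fold lower, beside 5 and 0 of the 8 members measured on both. For the high dose 0.849% of 9895 genes were at least 2-fold higher and 0.152% lower, beside 1 and 0 of 8 members.

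**Figure D1:**
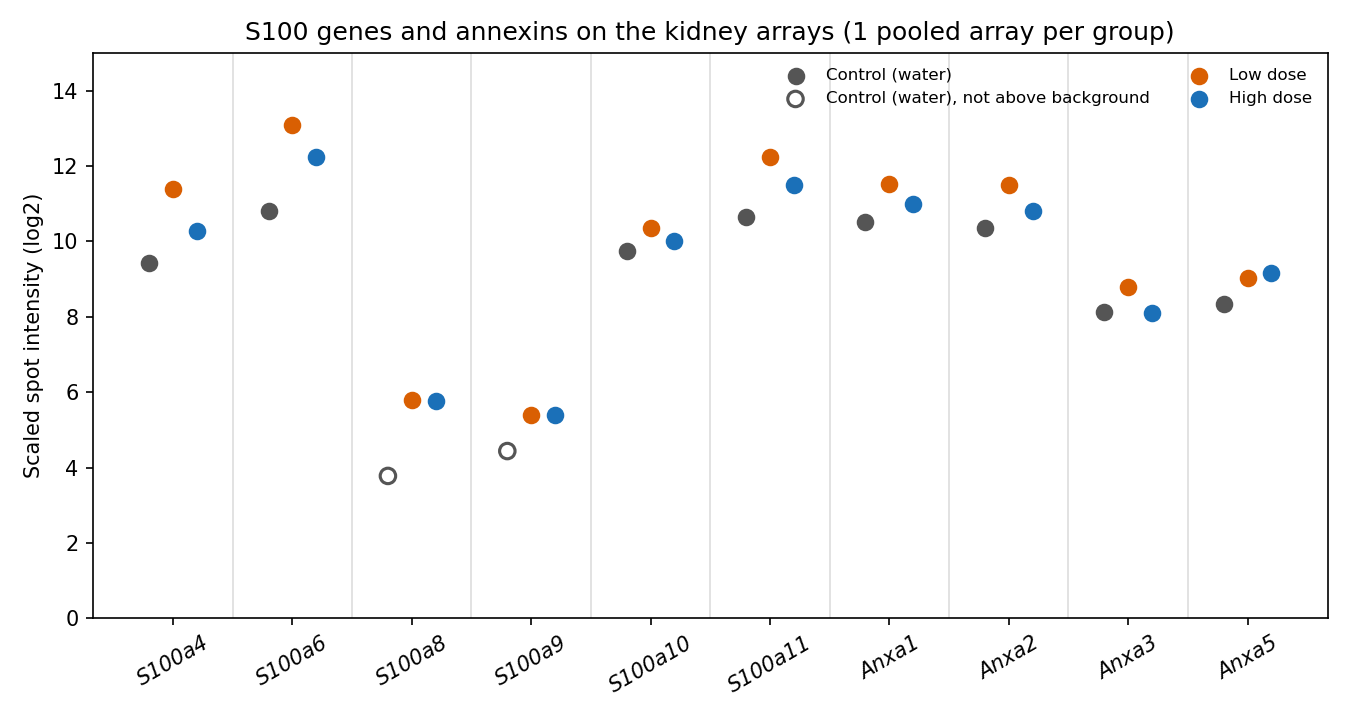
Scaled spot intensity (log2) of each of the 10 genes on the arrays of control, low dose and high dose, 1 point per array and no error bar because each group has 1 array. Open points mark S100a8 and S100a9 on the control array, which were not above background; the low-dose point is the highest for 6 of the 8 other genes with the high-dose point between it and control.

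S100a6, or calcyclin, is an S100 protein of dividing and stimulated epithelial cells and fibroblasts. Its intensity, scaled so that the 75th percentile is equal on all arrays, was 1777 in control, 8706 at the low dose and 4800 at the high dose. The log2 difference from control was 2.29 at the low and 1.43 at the high dose, and the high dose stood 0.86 below the low dose (log2 difference -0.86). Under the alternatives tried these values ran from 2.25 to 2.35, from 1.43 to 1.54 and from -0.87 to -0.75.

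S100a4, also called fibroblast-specific protein, binds non-muscle myosin and is expressed in fibroblasts and leukocytes. Its scaled intensity was 692 in control, 2706 at the low dose and 1239 at the high dose, which gave log2 differences from control of 1.97 and 0.84. It was the only member past 2-fold between the doses, lower at the high than at the low dose by 2.18-fold (log2 difference -1.13). In that comparison 1.48% of 10140 named genes were at least 2-fold lower and 0.464% at least 2-fold higher, beside 1 and 0 of 10 members.

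S100a11, or calgizzarin, is the partner of Anxa1 and is found in many epithelia. The brighter of its 2 probes read 1595 in control, 4800 at the low dose and 2895 at the high dose, for log2 differences of 1.59 and 0.86. The other probe read 368, 1113 and 784, for log2 differences of 1.60 and 1.09. The probes therefore differed by little at the low dose, while at the high dose the other probe lay past 2-fold and the brighter one did not. Pseudogenes and S100a11-like genes are listed in RefSeq, and signal from them could not be told apart from that of S100a11 here.

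S100a10, or p11, is the S100 protein that has lost calcium binding in its loops and is held to Anxa2 in a complex that binds plasminogen and carries channels to the cell surface. Its scaled intensity was 858 in control, 1309 at the low dose and 1029 at the high dose. The log2 differences of 0.61 and 0.26 were the smallest among the 4 member S100 genes measured on all arrays. A correction for position on the array, added after the data were seen, gave 0.45 and 0.09.

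S100a8 and S100a9 form the heterodimer calprotectin, which neutrophils and monocytes release and which signals through Tlr4 and Ager. S100a8 read 13.7 in control, not above background, 55.7 at the low dose and 54.7 at the high dose. Taken against the lowest value that counted as above background in control, the low dose was at least 4.07-fold higher and the high dose at least 3.99-fold. S100a9 read 21.7 in control, again not above background, 42.3 at the low dose and 42.0 at the high dose, so its bounds, taken against its own control value, were at least 1.95-fold and 1.93-fold. Both were dim at the doses, with signal-to-noise ratios at the low and high dose of 9.83 and 7.75 for S100a8 and 5.62 and 5.11 for S100a9. The doses differed by -0.03 (log2) in S100a8 and -0.01 in S100a9. With normexp background correction, which adds a constant to dim signal, the bounds for S100a8 were only 1.49-fold and 1.45-fold and those for S100a9 1.18-fold and 1.15-fold, so the 2-fold size of the S100a8 difference does not hold under that choice. With a signal-to-noise limit of 5 the S100a8 bounds were 2.22-fold and 2.18-fold, and those of S100a9 1.68-fold and 1.67-fold.

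Among the annexins, Anxa1 is the lipocortin that glucocorticoids induce and that damps leukocyte recruitment through formyl peptide receptors. It read 1473 in control, 2957 at the low dose and 2049 at the high dose, with log2 differences of 1.01 and 0.48. The low-dose value lies at the 2-fold line. It passed it under 8 of 11 alternatives and fell short with the authors' log2 values, the pixel median and the correction by position, over a range of 0.93 to 1.06. Anxa2, which forms the tetramer with S100a10, read 1311, 2881 and 1787 in the same order, with log2 differences of 1.14 and 0.45. Its range at the low dose, 1.13 to 1.21, lay past 2-fold throughout.

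Anxa3 and Anxa5 stayed under 2-fold in each comparison. Anxa3 read 282 in control, 441 at the low dose and 276 at the high dose, with log2 differences of 0.64 and -0.03. A different probe of Anxa3 was not above background on any array, and the mean over both probes gave 0.10 and -0.33. Anxa5, which binds phosphatidylserine on dying cells, read 324 in control, 526 at the low dose and 573 at the high dose. It was the only member with its highest value at the high dose, with log2 differences from control of 0.70 and 0.82.

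**Figure D2:**
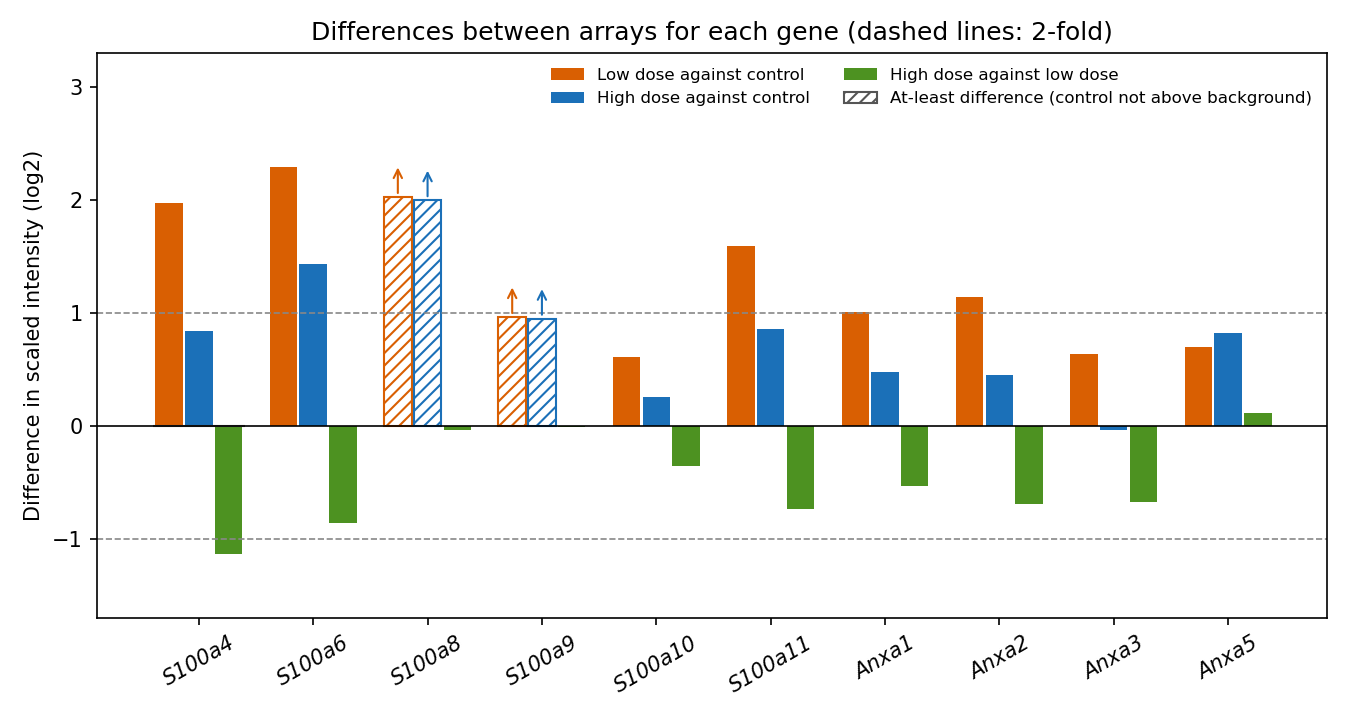
Log2 difference in scaled intensity for each gene in the 3 comparisons (bars), with dashed lines at 2-fold and hatched bars with arrows where the control array gave only a lower bound. The low-dose bars of S100a4, S100a6, S100a11, Anxa1 and Anxa2 reach the upper line, and among high-dose bars measured on both arrays only that of S100a6 does.

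Over the 8 members measured on both arrays the median log2 difference was 1.07 at the low dose, with a range of 0.61 to 2.29, beside a median of -0.11 over all named genes. At the high dose it was 0.65, from -0.03 to 1.43, beside -0.04 over all named genes. Both dose comparisons use the same control array, so they are not independent. Split by family, the 4 measured S100 genes had a median of 1.78 at the low and 0.85 at the high dose, and the 4 annexins 0.85 and 0.46. In 6 of the 8 members the low-dose array was highest, the high-dose array next and control lowest, an order found in 12.4% of 9644 named genes above background on all arrays. The exceptions were Anxa3 and Anxa5. Both doses stood above control in 7 of the 8, beside 24.6% of these genes. Set against the low dose, the high dose was lower in 9 of 10 members, beside 4552 of 10140 named genes. The median was -0.60 beside 0.04 over all named genes. For S100a8 (-0.03) and S100a9 (-0.01) the sign of the difference between the doses changes with the processing.

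Each of the 12 member probes was printed as 1 spot, so a member has no spread of its own within an array. Probes printed on 10 spots give the technical spread of a single spot. For 287 such probes with a log2 level of 9 or more, the SD over spots of the difference between the low-dose and control arrays had a median of 0.10 and a 90th percentile of 0.22, and for 421 probes between 7 and 9 these were 0.10 and 0.25. The differences of S100a4, S100a6, S100a11, Anxa1 and Anxa2 at the low dose were larger than this spread. That spread holds nothing of the difference between animals or pools. No member spot lay in the region of weak control signal (700 spots), and none had saturated pixels.

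**Figure D3:**
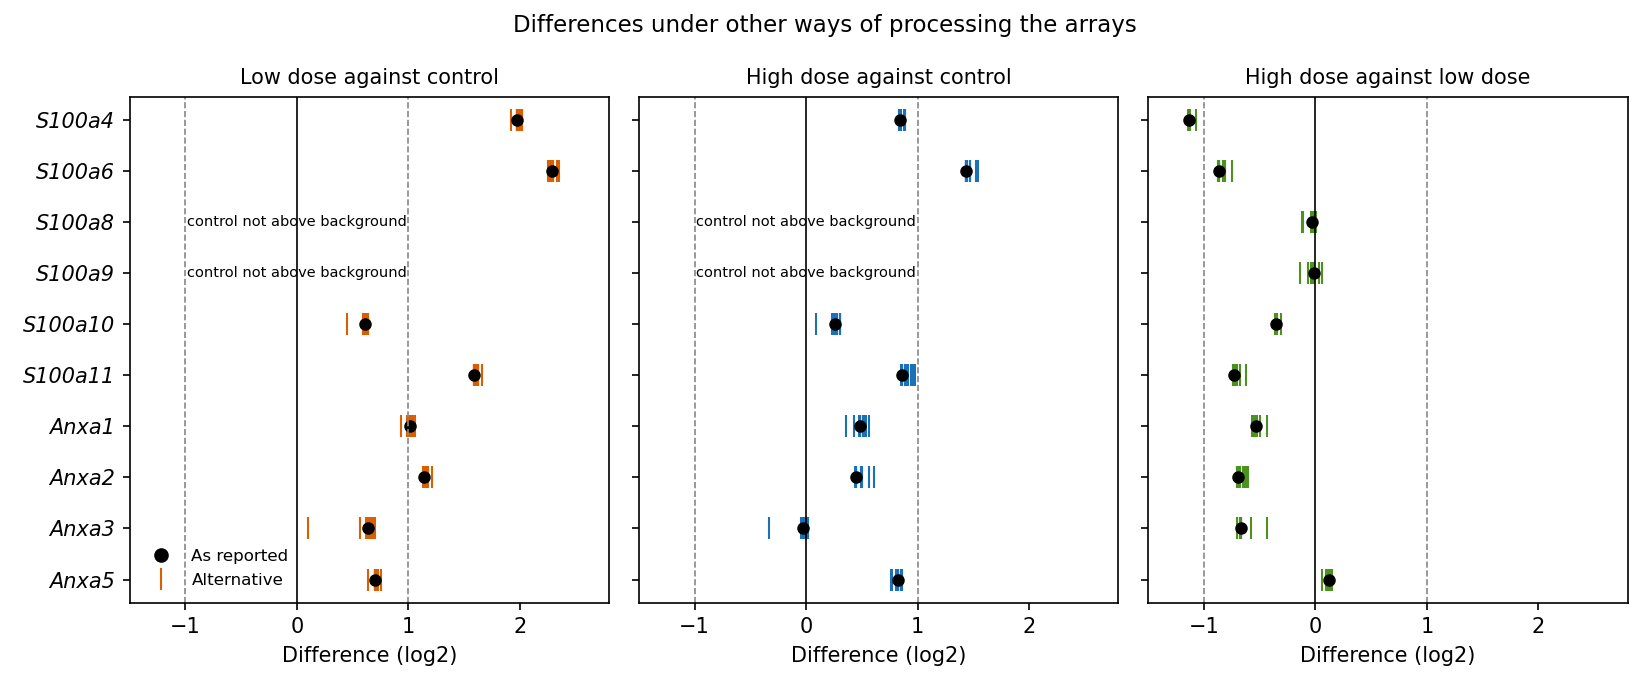
Log2 difference of each gene above background on both arrays, in the 3 comparisons, as reported (points) and under 11 other ways of processing the arrays (ticks), with dashed lines at 2-fold. The ticks of S100a4, S100a6, S100a11 and Anxa2 stay past 2-fold at the low dose, and those of Anxa3 run from 0.10 to 0.70. S100a8 and S100a9 have no ticks against control, where they gave only bounds.

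The 2 partner pairs measured on all arrays did not keep step in size. S100a11 exceeded Anxa1 by 0.58 in its log2 difference from control at the low dose and by 0.38 at the high dose. For S100a10 the order was the opposite, since its log2 difference lay below that of Anxa2 by 0.53 at the low dose (-0.53) and by 0.19 at the high dose (-0.19). These compare differences of each probe with itself across arrays and say nothing about how much of either partner was present.

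Of the 10 genes, 7 lie on rat chromosome 2 (RefSeq genes, assembly GRCr8). From S100a1 to S100a9, 11 S100 genes follow each other with no other protein-coding gene between them in that table. In the run, S100a1, S100a13 and S100a16 at one end had log2 differences of 0.37, 0.31 and 0.37 at the low dose and 0.48, 0.32 and 0.27 at the high dose. S100a3 was not above background on any array. S100a4 and S100a6, both past 2-fold at the low dose, enclose S100a5, which read 32.0 in control, not above background, 42.3 at the low dose and 36.5 at the high dose, at least 1.32-fold and 1.14-fold higher. A different S100a5 probe was not above background on any array. S100a7a was not above background on any array. S100a11 and S100a10 are next to each other elsewhere on the chromosome, with log2 differences of 1.59 and 0.61 at the low dose.

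**Figure D4:**
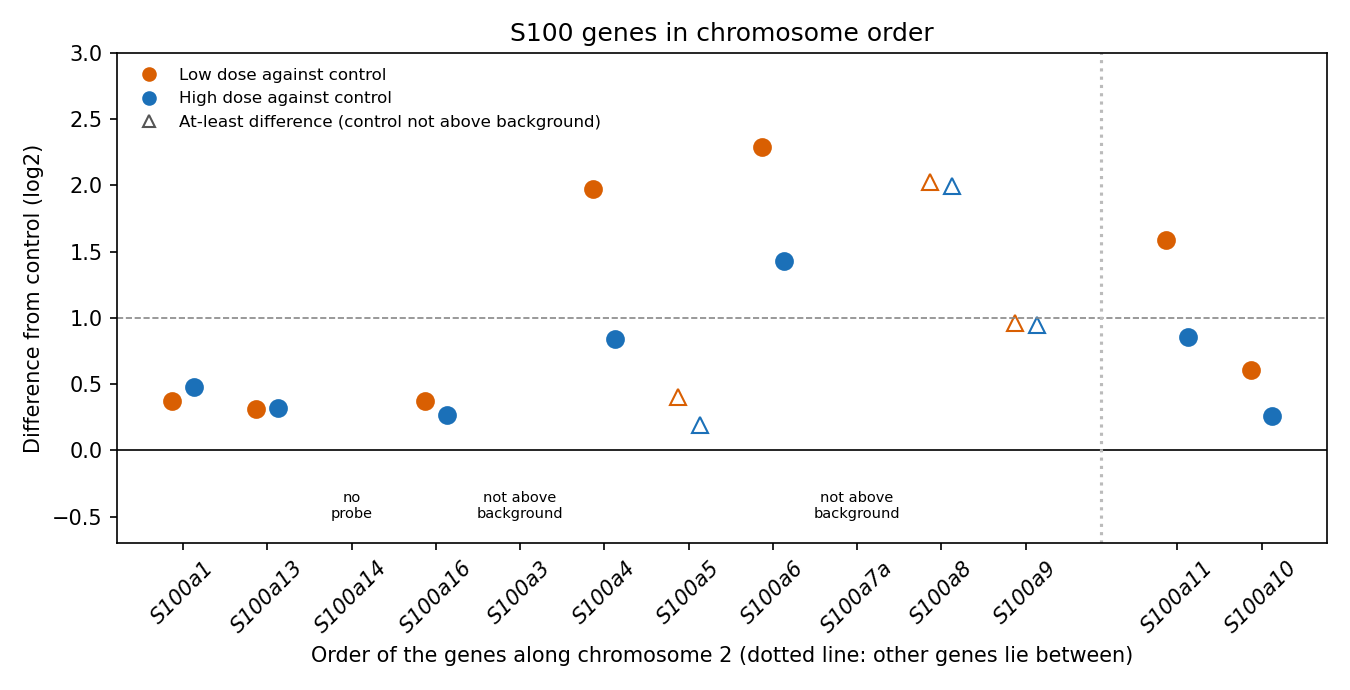
S100 genes of chromosome 2 in their order along the chromosome, with the log2 difference from control at the low and the high dose (points) and lower bounds where control was not above background (triangles). S100a4 and S100a6 stand at 1.97 and 2.29 at the low dose, while S100a1, S100a13 and S100a16 stay between 0.31 and 0.37.

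The sequences before the start sites of the 5 genes past 2-fold at the low dose are shown because these genes were high together. Each is the 250 bases before the start in the RefSeq promoter table of GRCr8, a Brown Norway assembly, so the hypertensive strain may differ in places. S100a4 is at chr2:178388279-178388528, S100a6 at chr2:178398287-178398536, S100a11 at chr2:181874882-181875131 and Anxa2 at chr8:78986002-78986251, all on the plus strand, and Anxa1 at chr1:227303733-227303982 on the minus strand. Capitals mark matches to 5 motifs searched on both strands. The TATA box was searched as TATAAA. The GC box was searched as GGGCGG. The AP-1 site was searched as TGANTCA. The CCAAT box was searched as CCAAT. The C/EBP site was searched as TTGCNNAA.
S100a4: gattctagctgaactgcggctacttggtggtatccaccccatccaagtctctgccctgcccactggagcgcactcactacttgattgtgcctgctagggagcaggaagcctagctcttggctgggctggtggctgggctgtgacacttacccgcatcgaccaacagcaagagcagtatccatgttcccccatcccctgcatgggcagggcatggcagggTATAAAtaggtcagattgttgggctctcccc
S100a6: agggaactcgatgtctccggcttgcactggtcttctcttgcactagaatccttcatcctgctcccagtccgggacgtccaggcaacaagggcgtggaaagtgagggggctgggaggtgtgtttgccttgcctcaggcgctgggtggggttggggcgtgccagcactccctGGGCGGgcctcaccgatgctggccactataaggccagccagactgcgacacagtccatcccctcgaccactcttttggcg
S100a11: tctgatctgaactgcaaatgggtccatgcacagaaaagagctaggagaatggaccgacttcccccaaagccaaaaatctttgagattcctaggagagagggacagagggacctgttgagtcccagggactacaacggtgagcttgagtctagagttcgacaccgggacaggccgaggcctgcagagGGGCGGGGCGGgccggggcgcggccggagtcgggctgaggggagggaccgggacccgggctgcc
Anxa1: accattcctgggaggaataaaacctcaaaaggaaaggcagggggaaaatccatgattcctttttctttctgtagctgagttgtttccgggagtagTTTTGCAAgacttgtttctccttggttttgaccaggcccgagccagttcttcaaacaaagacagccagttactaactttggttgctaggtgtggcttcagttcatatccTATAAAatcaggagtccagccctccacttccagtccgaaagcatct
Anxa2: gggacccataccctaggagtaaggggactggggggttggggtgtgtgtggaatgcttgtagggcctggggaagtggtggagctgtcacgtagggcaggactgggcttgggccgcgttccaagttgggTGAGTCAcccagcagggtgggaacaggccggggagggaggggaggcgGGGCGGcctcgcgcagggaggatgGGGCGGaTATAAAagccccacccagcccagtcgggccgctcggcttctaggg
The S100a4, Anxa1 and Anxa2 windows hold the TATA box, whose first base on the strand shown lies 31, 46 and 45 bases before the start. The S100a6, S100a11 and Anxa2 windows hold the GC box, in S100a11 as 2 copies that overlap by a base and in Anxa2 as 2 separate copies. Anxa2 has the match to the AP-1 motif and Anxa1 the match to C/EBP, read on the other strand. No motif was found in all 5. Of 33465 promoters of this length, 12.9% hold the TATA box, 30.5% the GC box, 6.34% the AP-1 site, 34.0% the CCAAT box and 9.22% the C/EBP site. Among the 8 members in the table, which lacks S100a8 and S100a10, these were found in 4, 5, 1, 0 and 1. A match describes the letters and is no evidence of binding.

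The rest of the family was taken from a list of 20 other S100 and annexin genes, of which 18 had a probe. Of the 9 measured on both arrays, 1 was at least 2-fold higher at the low dose, and the median log2 difference was 0.31 at the low and 0.27 at the high dose. That gene was Anxa9, an annexin that has lost most calcium binding. It read 40.0 in control, 90.3 at the low dose and 79.4 at the high dose, with log2 differences of 1.18 and 0.99, and normexp reduced them to 0.54 and 0.41. Anxa8, an annexin of stratified epithelium, was printed on 10 spots. It read 5.25 in control, not above background, with an SD over spots of 1.36 (log2). The low dose read 46.1 with an SD of 0.25 and the high dose 22.6 with an SD of 0.36. At the high dose 6 of the 10 spots reached a signal-to-noise ratio of 3. The low dose was thus at least 3.37-fold higher and the high dose at least 1.65-fold; between the doses it was 2.04-fold lower at the high dose (log2 difference -1.03). With a signal-to-noise limit of 5 the low-dose bound was 1.84-fold. Under normexp the low-dose bound was 1.36-fold and the high-dose bound 1.0-fold, and the difference between the doses was -0.44.

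S100b, the S100 protein of glia that adipocytes also make, read 20.5 in control, not above background, 71.1 at the low dose and 78.4 at the high dose. Its bounds were at least 3.46-fold and 3.82-fold, and 1.56-fold and 1.63-fold under normexp. A different S100b probe, with 10 spots, was not above background on any array, so the probes disagree. The others lay close to control. S100g, the vitamin D-dependent calbindin of calcium-transporting epithelium, stood at log2 differences of -0.22 and -0.19, and Anxa11 at -0.23 and -0.19. S100a1, S100a13, S100a16, Anxa4, Anxa6 and Anxa7 lay between 0.11 and 0.49 at the low dose. With members included, 6 of 17 family genes were at least 2-fold higher at the low dose and 1 of 17 at the high dose, and 0 were lower at either.

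Receptors and binding partners were taken from fixed lists. Of 12 receptors and channels on the list, 5 were measured on both the control and low-dose arrays, and 1 of them was at least 2-fold higher: Cd36, a scavenger receptor that takes up fatty acids and has been found to bind S100a8 and S100a9, at a log2 difference of 1.05. Trpv6, a calcium channel of transporting epithelium that S100a10 and Anxa2 assist, was above background at the low dose alone. It read 10.3 in control, 42.3 at the low dose and 8.21 at the high dose, so the low dose was at least 3.08-fold above control and the high dose at least 5.15-fold below the low dose. Tlr4 read 29.7 in control, 38.4 at the low dose and 26.5 at the high dose. Ager, the RAGE receptor, read 37.7, 25.9 and 39.2 in that order, not above background at the low dose. Fpr2, a receptor of Anxa1, and Trpv5, the channel related to Trpv6, were not above background on any array. Cd68, a macrophage protein that was listed there too, was 1.03 lower at the high than at the low dose (log2 difference -1.03).

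Of 22 binding partners and genes of the plasmin system, 17 were measured in each comparison with control and 0 of these passed 2-fold at either dose. The median log2 difference was 0.12 at the low and 0.13 at the high dose. Ahnak, the giant scaffold that the S100a10 and Anxa2 complex binds, stood at 0.46 and -0.08. The plasminogen activators Plat and Plau, which make plasmin on that complex, stood at 0.80 and 0.12 and at -0.42 and 0.24. Pla2g4a, the cytosolic phospholipase that Anxa1 restrains, stood at 0.84 and 0.81.

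**Figure D5:**
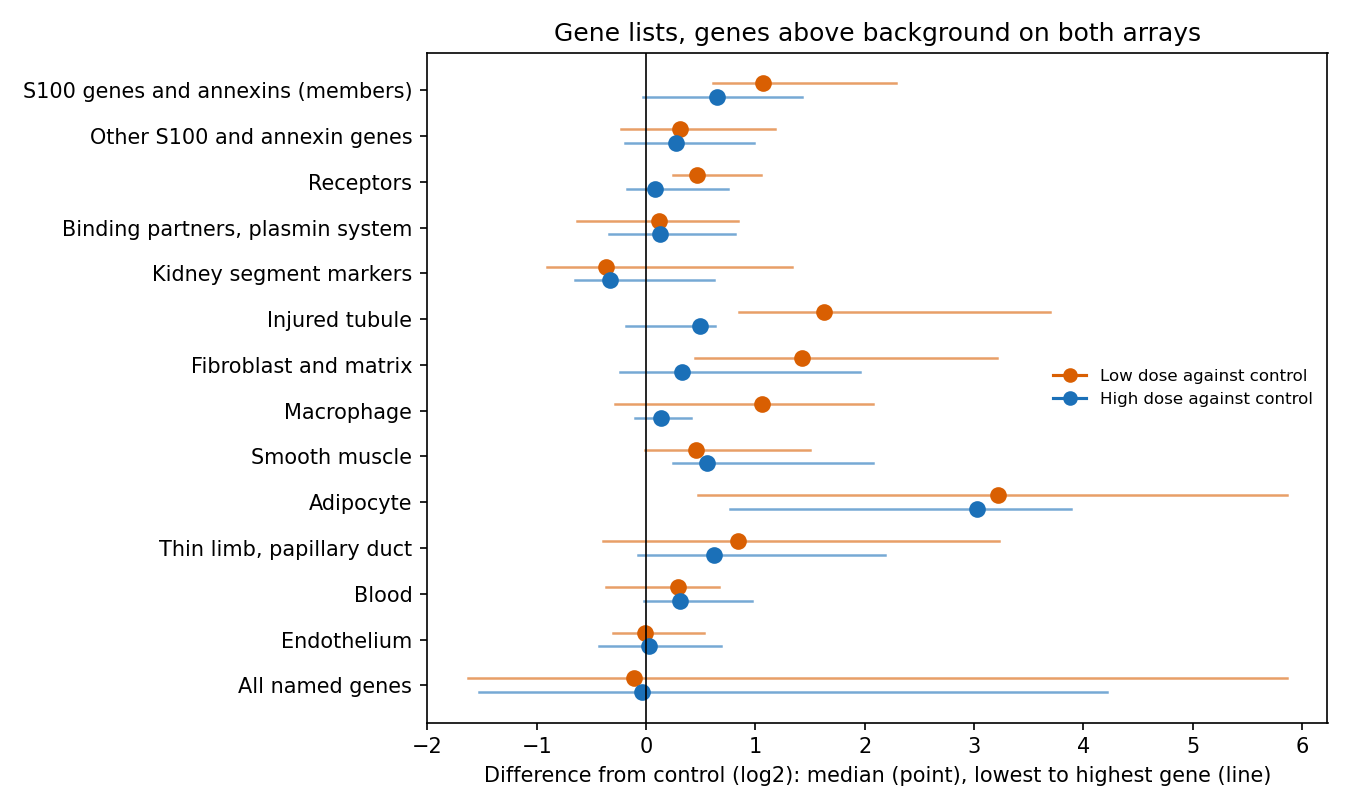
Median log2 difference from control (points) and the lowest to highest gene (lines) for the member genes, the rest of the family, their partners and marker lists, over genes above background on both arrays compared. The member median lies at 1.07 at the low dose and 0.65 at the high dose, and all named genes lie at -0.11 and -0.04.

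Markers of other cells moved in the same libraries. In pooled whole-kidney RNA, more cells of a type and more RNA per cell cannot be told apart. The 10 kidney segment markers were above background on every array, with a median log2 difference of -0.37 at the low and -0.33 at the high dose, and Aqp2, the collecting duct water channel, at 1.34 at the low dose. Among 8 injured tubule markers measured on both arrays, 6 passed 2-fold at the low dose, where their summed scaled intensity was 13272 against 3067 in control and 4516 at the high dose. Among these Lcn2 stood at log2 differences of 3.70 and 0.50. Havcr1 (KIM-1), which injured proximal tubule cells make, was above background at the low dose alone, at 223 against 13.7 in control, at least 16.3-fold higher. Of 7 fibroblast and matrix markers measured on both arrays, 6 were 2-fold higher at the low dose, with sums of 3613 in control, 11098 at the low dose and 4099 at the high dose. Of 10 macrophage markers measured on both, 5 were, with sums of 16971, 24961 and 16079 in the same order. Most of each macrophage sum was Lyz2, at 13326, 17715 and 12430. These 3 lists have the low-dose array as their highest, as most of the members do. So do the adipocyte, urothelial, thin limb and papillary collecting duct, endothelial, and T and B cell lists given next. The macrophage sum at the high dose lay below that in control. The part of these cells in the members' differences was not tested.

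Adipocyte markers summed to 397 in control, 5547 at the low dose and 2949 at the high dose. Much of the low-dose sum was Ucp1, at 37.4, 2180 and 555 in the same order. Of the 5 genes above background on every array, 4 stood past 2-fold above control at each dose. Lipe, Cfd and Retn were above background at the doses but not in control. Lipe changed little, at 25.1, 26.9 and 26.5, with bounds of 1.07-fold and 1.05-fold. The low-dose bounds were 25.6-fold for Cfd and 16.8-fold for Retn, and the high-dose bounds 15.1-fold and 19.1-fold. Plin1 and Lep were not above background on any array. Thin limb and papillary collecting duct markers summed to 18701, 24638 and 21476. Much of these sums was Krt7, at 10044, 11581 and 9928. Among the 10 genes of that list, 4 were at least 2-fold higher at the low dose and 3 at the high dose. Urothelial markers summed to 281, 1706 and 1081. Of the 8 urothelial genes with a probe, 2 were measured on all arrays. Upk1a was past 2-fold at each dose (log2 differences 2.10 and 1.55), while Upk1b stood at -0.05 and 0.18. Upk3b and Krt5 were not above background on any array. Upk2, Upk3a, Krt15 and Sprr1a were above background at the doses alone. Their bounds were at least 10.2-fold, 19.6-fold, 11.5-fold and 13.3-fold at the low dose, and 7.72-fold, 12.1-fold, 4.14-fold and 7.69-fold at the high dose. Smooth muscle markers summed to 1151, 1560 and 1719, blood markers to 47249, 53955 and 55991, endothelial markers to 8177, 9504 and 8026, and T and B cell markers to 305, 377 and 349. The share of these cells in the members' values was likewise not tested.

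Neutrophil markers were listed because S100a8 and S100a9 are abundant in neutrophils. The part of neutrophils in the values of these genes was not tested. Of 15 on the list, 1 was above background in control, 1 at the low dose and 3 at the high dose, and their sums were 165, 143 and 188. The spots of Camp in control and of Fcnb at the low dose were left out, so these sums do not cover the same genes. Both genes were counted as not above background on those arrays. Fcnb read 27.4 in control and 31.9 at the high dose. The defining markers Cxcr2, Mpo and Elane were not above background on any array, and Csf3r was so at the high dose alone, at 20.1. Retnlg, the one measured on all arrays, stood at log2 differences of 0.35 and 0.52.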

How the data were processed

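Kidney RNA of 3 groups was hybridised to 1 Agilent rat array each, labelled with Cy3, per the labels. The deposited files give spot intensity at 532 nm from GenePix Pro 6.1.0.4, less a background of 39 or 40 set from negative controls, per the file headers, while Agilent Feature Extraction is what the submitters' processing notes give. Each deposited spot also has a score, its signal-to-noise ratio and flag, and the percent of saturated pixels. A table of log2 values came from the authors, by a normalization not given in the sources used here. A mouse design is named in the high-dose header, but the probes equal those of the other arrays. The image name in the headers lists a further array, which was not analysed here. The arrays share 1 slide, where the effects of array position and group cannot be told apart.

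Control spots, bright spots marked as not found (6, 5 and 6, in the order control, low, high) and non-uniform spots, with over 1.5-fold between net pixel mean and median (166, 139 and 80), were left out. Net means were averaged by probe, scaled to an equal 75th percentile (factors 1.14, 0.960 and 0.912), floored at 1 and put on the log2 scale. Above background were 50.4%, 52.0% and 54.7% of probes. Probes were named through RefSeq (GRCr8) accessions (18355), current symbols (2758), synonyms (422) or the files (1787); 7045 had none. A gene took the probe above background on most arrays, then the brightest. A bound divides the bright value by the dim array's lowest above-background level (13.7 in control), or by the dim value itself where that is larger. All members were named, with other family and partner genes past 2-fold, some partners fixed by name and the leading markers. S100a1, S100a3, S100a5, S100a7a, S100a13, S100a16, S100b, S100g and the other annexins within 2-fold were named in addition, after their values were seen. So were Trpv5, Pla2g4a, Elane, Retnlg, Camp, Fcnb, Lyz2, Krt7, Lipe, Cfd, Retn, Lep, Plin1, Ucp1, Upk3a, Upk3b, Krt5, Krt15 and Sprr1a. One gene that the rule would name is not reported here. The members and lists were chosen with earlier results of these data known. The calculation was tested on simulated data. Alternatives were run with limma 3.58.1 (normexp, offset 50) and Python 3.11.15 with pandas 2.3.3.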

Additional observations from a re-analysis of the deposited data

How the results depend on the processing

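Over 165 recomputed counts and medians, 153 kept to within 1.5 times the reported count or within the spread between spots, and 12 moved. Counts could not reverse. Of the medians, only the members' low-dose median, being past 2-fold, could be called reversed, and it was not. Of 327 recomputed differences of single genes 25 moved and 0 past 2-fold turned direction. The near-zero values of Anxa3 at the high dose (0.02 at most) and of S100a8 and S100a9 between the doses changed sign under some alternatives. The 5 members past 2-fold at the low dose became 4 with the authors' log2 table, the pixel median and the correction by position on the array, where Anxa1 fell short. S100a6 remained past 2-fold at the high dose, and S100a4 between the doses, under all 11 alternatives. For these genes, each with 1 bright probe, the mean over probes, the limit of 5 and the lack of a filter could change nothing. Without a filter on dim probes the members past 2-fold at the high dose were 2, and their median there was 0.83. The whole family of 28 genes with a probe then had 10 higher and 2 lower at the low dose. It had 7 higher at the high dose and 3 higher between the doses. Over all named genes without that filter, 5.33% were higher and 9.56% lower at the low dose. The shares higher were 5.86% at the high dose and 8.96% between the doses. The family genes lower at the low dose, and those higher between the doses, were not above background on any array. The family count at the high dose was 2 with the 75th percentile over probes above background, the authors' table and the pixel median, where Anxa9 passed 2-fold. The family count lower between the doses was 1 under normexp and with a signal-to-noise ratio of 5. With the mean over probes the members' median between the doses was -0.48. The cause of these moves was not tested, apart from the dim probes that a filter removes or keeps. Counts over all genes moved too: at the low dose 133 were at least 2-fold higher under normexp and 949 without the filter, in place of 243. No paired analysis was possible because each group has 1 array here and no replicate could be left out. Dim signal limits S100a8, S100a9, Anxa8, Anxa9 and S100b, whose bounds or differences depend on the background correction and on the signal-to-noise limit. With a limit of 5 the S100b bounds were 2.83-fold at the low and 3.12-fold at the high dose. Anxa9, with a ratio of 4.71 in control, was then not above background there.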
